A study of Mus musculus with 4 samples.

Results

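The interferon regulatory factors (IRFs) are a family of transcription factors, and 7 of their genes, Irf1, Irf2, Irf3, Irf5, Irf7, Irf8 and Irf9, were measured among 16442 genes. They were taken by gene symbol, and other members of the family were not analysed here. The mRNA came from leukaemia stem cells, the leukaemic cells able to restart the disease, isolated from the bone marrow of C57BL/6 mice with leukaemia. The KO group holds 2 libraries whose titles begin with KO and name no gene, and the WT group holds 2 whose titles begin with WT. The genotype label of the first KO library names Rreb1, which encodes a transcription factor with zinc fingers first described downstream of RAS, and that of the second names Rreb2. Libraries were therefore grouped by title, and the extraction text speaks of TAMs where the titles say LSC. The sources used here do not give animal age, the oncogene behind the leukaemia, the part of Rreb1 removed or any pooling of animals. The labels call the replicates biological. If they were not separate animals, the p-values measure only the spread between these samples.

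IRFs bind DNA through an amino-terminal domain rich in tryptophans that reads repeats of GAAA. IRF3, IRF5 and IRF7 wait in the cytoplasm until kinases below Toll-like receptors and nucleic acid sensors phosphorylate them, and they then switch on interferon and cytokine genes. IRF9 carries the signal of interferon receptors to DNA together with STAT proteins, while IRF1 activates and IRF2 mostly opposes genes of the interferon-gamma response. IRF8 is a lineage factor of marrow. It pairs with PU.1, is needed for monocytes and dendritic cells, and holds back granulocyte output, and mice without it develop a myeloid disease resembling chronic leukaemia.

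Upstream sequence is shown for the members whose levels stood apart, Irf8 and Irf5, and for Irf1 and Irf2, whose windows share a STAT site with Irf8 but not with Irf5. The 250 bases before each RefSeq start site (GRCm38.p6, plus strand) are given 5′ to 3′, with motif matches in capitals. They are chr8:120736108-120736357 for Irf8, chr6:29526375-29526624 for Irf5, chr11:53769764-53770013 for Irf1 and chr8:46739495-46739744 for Irf2.
Irf8: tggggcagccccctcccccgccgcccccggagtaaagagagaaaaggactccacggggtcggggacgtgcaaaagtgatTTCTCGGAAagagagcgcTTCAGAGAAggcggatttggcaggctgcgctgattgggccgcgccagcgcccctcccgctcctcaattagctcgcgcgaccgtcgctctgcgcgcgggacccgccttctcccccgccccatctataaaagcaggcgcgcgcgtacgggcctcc
Irf5: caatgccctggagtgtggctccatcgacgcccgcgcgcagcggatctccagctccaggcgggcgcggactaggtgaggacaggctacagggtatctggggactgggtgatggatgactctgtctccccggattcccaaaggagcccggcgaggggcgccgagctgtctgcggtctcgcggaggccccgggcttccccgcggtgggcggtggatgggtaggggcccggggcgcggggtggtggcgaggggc
Irf1: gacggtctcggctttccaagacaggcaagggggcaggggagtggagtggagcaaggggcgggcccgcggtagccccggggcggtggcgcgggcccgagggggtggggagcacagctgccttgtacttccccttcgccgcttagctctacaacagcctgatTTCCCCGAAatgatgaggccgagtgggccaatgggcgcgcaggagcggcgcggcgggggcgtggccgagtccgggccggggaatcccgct
Irf2: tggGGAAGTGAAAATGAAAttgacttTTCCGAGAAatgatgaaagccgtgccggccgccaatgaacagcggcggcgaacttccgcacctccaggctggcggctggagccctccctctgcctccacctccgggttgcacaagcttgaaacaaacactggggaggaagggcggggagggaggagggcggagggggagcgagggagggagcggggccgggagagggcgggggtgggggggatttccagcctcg

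Both strands of each 300-base window, from 250 bases before to 50 after the start, were searched for 4 motifs. The 7 genes had 10 windows in all. The STAT site TTCNNNGAA, known as GAS, was found in 3 of the 10 windows, against 8.30% of all 32851 mouse windows. Irf8 held it at positions −171 and −153, Irf1 at −90 and Irf2 at −224, each position being the first base of the match counted from the start site. The interferon-stimulated response element (ISRE), searched as a pair of GAAA repeats with any 2 bases between them, was found in the Irf2 window alone, at −241, against 3.44% of all windows. There it overlaps the ETS and IRF composite site (GGAA, any 2 bases, GAAA) at −247, which 2.72% of all windows held. CCAAACCAC, a stretch of the element bound by RREB1, was in 0 of the 10 windows and in 0.289% of all windows. The Irf5 window held none of these letters. GC content of the printed bases was 67.2% for Irf8, 72.0% for Irf5, 71.2% for Irf1 and 65.2% for Irf2, against a median of 52.4% over all windows.

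Levels are in FPKM (fragments scaled to exon length and to library depth). The length is that of all annotated exons of a gene, whether or not they are expressed here. Orders, ratios and shares between genes therefore depend on the annotation. Depth was 18420466 and 17037493 assigned reads in KO and 18451251 and 16590830 in WT, so that for 2 kb of exons a count of 3 reads corresponds to between 0.0813 and 0.0904 FPKM (counting error only). The targeted gene Rreb1 stood at 6.10 and 6.93 FPKM in KO, against 5.24 and 6.57 FPKM in WT. The groups overlapped (log2 fold change 0.13, SE 0.133, limma adjusted p = 0.616). The value covers all its exons, and a deletion of few exons could leave it as it is, so KO and WT stand for the labels in all that follows. Hoxa9 and Meis1, transcription factor genes of leukaemic self-renewal that were picked with their values known, were at 35.8 and 31.8 and at 11.9 and 11.5 FPKM in KO, against 28.9 and 30.4 and 10.8 and 11.5 FPKM in WT. The neutrophil elastase gene Elane, picked likewise, was at 7205 and 6264 FPKM in KO, against 7121 and 5204 FPKM in WT. Differences were tested with limma on log2(FPKM + 1) over 11768 genes averaging 1 FPKM or more, with Benjamini-Hochberg adjustment and a threshold of 0.05. In that fit 71 genes rose and 48 fell. All 7 family members passed the filter, each at 6 FPKM or more in every library.

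Irf8 and Irf5 were lower in KO, at 0.508 and 0.504 times their WT means, and the KO to WT ratio of the other 5 members lay between 0.958 and 1.07. The family was chosen with its KO and WT values known, because Irf8 and Irf5 were low in KO and the others were not called, so the values are a description and no test is given for them. In the fit 2 of the 7 members were called, both lower, and the share called among all tested genes was 1.01%, with 0.603% higher and 0.408% lower. By limma-voom on recovered reads 7.3% of all genes and 2 of the 7 members were called, both members lower. Without the filter on level, and with any of the 4 libraries left out, 0 members were called.

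Irf8 (chromosome 8, 120736358 to 120756694, plus strand, GRCm38) was at 16.3 and 15.3 FPKM in KO, against 34.6 and 27.4 FPKM in WT. The KO libraries were the lower pair and close to each other, while the WT libraries stood further apart. The means were 15.8 ± 0.696 FPKM in KO and 31.0 ± 5.10 FPKM in WT (SD, n = 2 each), a ratio of 0.508 and a log2 fold change of −0.92 (SE 0.124). These levels rest on 2113 and 1836 reads in KO and 4507 and 3209 in WT. No other annotated gene shares exonic bases with Irf8.

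Irf5 (chromosome 6, 29526625 to 29541871, plus strand), a factor of MyD88 signalling that switches on inflammatory cytokines, was at 15.3 and 15.4 FPKM in KO, against 32.7 and 28.2 FPKM in WT. The groups did not overlap, and the first WT library was again the highest. The means were 15.3 ± 0.105 FPKM in KO and 30.4 ± 3.20 FPKM in WT (SD, n = 2 each), a ratio of 0.504 and a log2 fold change of −0.94 (SE 0.0985). Reads numbered 817 and 763 in KO and 1753 and 1358 in WT. Irf5 shares 411 exonic bases, 14.1% of its exonic length, with Tnpo3, a nuclear import receptor gene on the other strand, and the library kit is not described as marking strand. Tnpo3 was at 6.07 and 6.36 FPKM in KO, against 5.12 and 5.12 FPKM in WT (log2 fold change 0.24, SE 0.0997, limma adjusted p = 0.248), so it did not share the low KO level of Irf5.

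**Figure D1:**
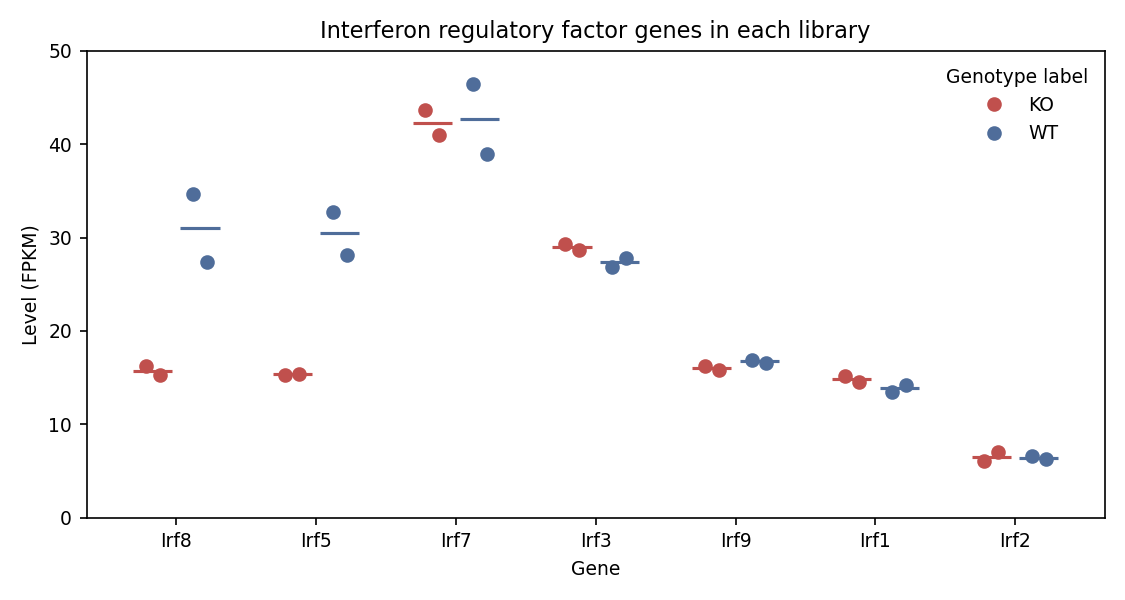
Level of each IRF gene in FPKM (vertical axis, linear, from 0), with 1 point per library and a bar at the mean of each genotype label, KO left of WT. Irf8 and Irf5 lie at 15.3 to 16.3 FPKM in KO and at 27.4 to 34.6 FPKM in WT, while the other genes differ little between the labels.

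Irf7, the inducible amplifier of type I interferon, had the highest level of the family in all 4 libraries. It was at 43.6 and 41.0 FPKM in KO, against 46.4 and 39 FPKM in WT (log2 fold change −0.01, SE 0.106). The WT libraries enclosed the KO libraries, and the sign of the difference changed when single libraries were left out (−0.13 to 0.11). Irf3, the constitutive partner of IRF7, was at 29.3 and 28.6 FPKM in KO, against 26.9 and 27.8 FPKM in WT (log2 fold change 0.08, SE 0.0787). The KO libraries lay slightly above the WT libraries, by a distance similar to that between replicates. The ratio of Irf7 to Irf3 was 1.49 and 1.43 in KO and 1.73 and 1.40 in WT.

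Irf9, the DNA-binding part of the interferon-activated STAT complex, was at 16.2 and 15.9 FPKM in KO, against 16.9 and 16.6 FPKM in WT (log2 fold change −0.06, SE 0.0816). The KO libraries were lower by a small margin. Irf1 was at 15.2 and 14.5 FPKM in KO, against 13.5 and 14.2 FPKM in WT (log2 fold change 0.09, SE 0.0856). Its KO libraries were higher by a small margin.

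Irf2 had the lowest level of the family, 6.03 and 7.04 FPKM in KO, against 6.59 and 6.30 FPKM in WT. Its KO libraries enclosed the WT libraries (log2 fold change 0.01, SE 0.111), and the sign changed with median-ratio scaling (−0.0058), by limma-voom (−0.0085) and with single libraries left out (−0.08 to 0.11). The ratio of Irf1 to Irf2 was 2.51 and 2.07 in KO and 2.05 and 2.25 in WT. Groups did not overlap for 5 of the 7 members, against 55.3% of all tested genes. Small stretches of Irf1, Irf3, Irf7 and Irf9, 1.19% to 3.40% of their exonic length, are shared with Gm17334, Bcl2l12, Phrf1 and Rnf31. How many reads fell on the shared bases was not tested.

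**Figure D2:**
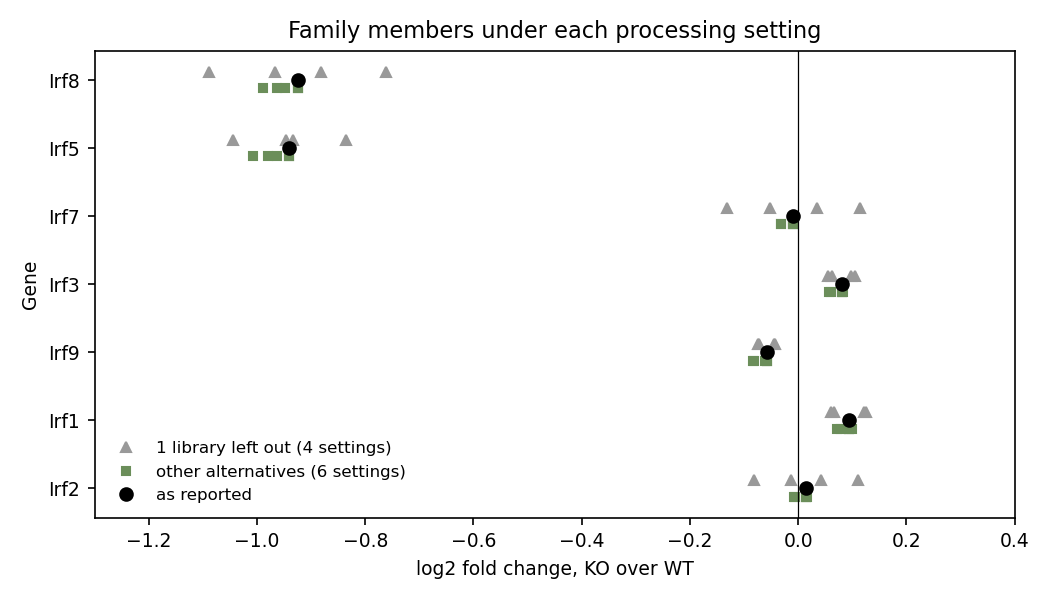
Log2 fold change of each member, KO over WT (horizontal axis), as reported (black circles), with 1 library left out (grey triangles, 4 settings) and under 6 other alternatives (green squares). Irf8 stays between −1.09 and −0.76 and Irf5 between −1.04 and −0.84, while the other 5 stay between −0.13 and 0.13.

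The order of levels differed between genotypes. In both KO libraries Irf7 and Irf3 led, followed by Irf9, Irf8 and Irf5, and then by Irf1 and Irf2. The KO range of Irf8 overlapped those of Irf9 and Irf5, which did not overlap each other. In both WT libraries Irf7 led as well, but Irf8, Irf5 and Irf3 came next, above Irf9, Irf1 and Irf2. The WT range of Irf8 overlapped those of Irf5 and Irf3, which did not overlap each other. Irf5 lay below Irf9 in both KO libraries and above it in both WT libraries. Irf8 and Irf5 had nearly equal FPKM in every library, with a ratio of Irf8 to Irf5 of 1.07 and 0.991 in KO and 1.06 and 0.973 in WT. Their annotated exonic lengths were 7055 and 2905 bases, and Irf8 had more reads than Irf5 in every library.

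As a share of the summed family level, Irf8 took 11.3% ± 0.262 in KO and 18.3% ± 1.63 in WT, and Irf5 took 11.0% ± 0.305 in KO and 18.0% ± 0.525 in WT (SD, n = 2 each). Irf7 took 30.2% ± 0.690 in KO and 25.3% ± 1.19 in WT, and Irf3 took 20.7% ± 0.0773 in KO and 16.3% ± 1.64 in WT. Since shares add to a fixed total, these rise where Irf8 and Irf5 are low. The summed level of the 5 other members was 110.4 and 107.1 FPKM in KO, against 110.3 and 103.9 FPKM in WT. That of Irf8 and Irf5 was 31.5 and 30.7 FPKM in KO, against 67.3 and 55.6 FPKM in WT.

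**Figure D3:**
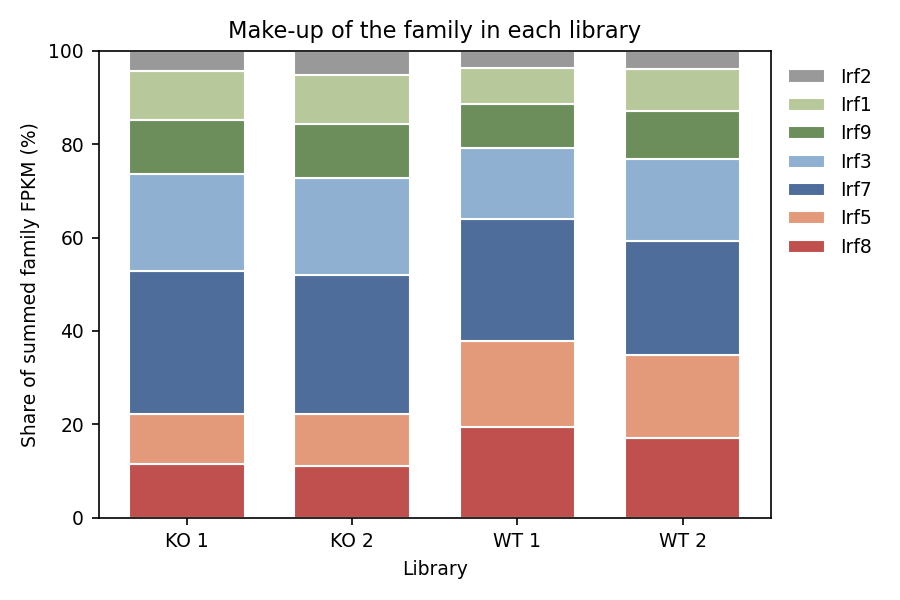
Share of the summed FPKM of the 7 IRF genes (vertical axis, %) taken by each gene in each library, KO libraries left of WT libraries. Irf8 and Irf5 together make up 22.2% and 22.3% of the KO bars and 37.9% and 34.9% of the WT bars.

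The genes on either side of Irf8 and Irf5 on the chromosome give a view of the same regions. The nearest 2 tested genes before and after Irf8 were Emc8, Cox4i1, Mthfsd and Fbxo31, and those around Irf5 were Calu, Atp6v1f, Tnpo3 and Smkr-ps. Of these 8 genes 0 were called by limma, 1 had an unadjusted p below 0.05 (Emc8), and limma-voom on recovered reads called 0 of the 7 it could test. Over all tested genes these shares were 1.01%, 20.7% and 7.3%. With so few genes the counts cannot tell these regions from the rest of the genome. Emc8, a subunit of the membrane protein insertion complex of the endoplasmic reticulum, was at 12.03 and 10.03 FPKM in KO, against 13.6 and 13.95 FPKM in WT (log2 fold change −0.30, SE 0.109, limma adjusted p = 0.203). Cox4i1, a subunit of respiratory complex IV that lies beside Irf8, was at 732 and 636 FPKM in KO, against 748 and 674 FPKM in WT (log2 fold change −0.06, adjusted p = 0.825). Atp6v1f, a subunit of the vacuolar proton pump beside Irf5, was at 272 and 292 FPKM in KO, against 255 and 239 FPKM in WT (log2 fold change 0.19, adjusted p = 0.325).

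The genes with the most similar pattern were found by the Euclidean distance over the 4 libraries between log2(FPKM + 1) values centred on each gene's mean. With 4 libraries in 2 groups this is a description of likeness, and many genes that are low in both KO libraries come near. Irf8 and Irf5 were 0.109 apart, and 3 tested genes were nearer to Irf8 than Irf5 was. The 5 nearest to Irf8 outside the family were Rnd3, Serpinf1, Mpo, Mgp and Ctss, at distances of 0.0661 to 0.115. Rnd3 and Mgp lay between 0.593 and 2.51 FPKM, where the added 1 understates changes, so their nearness depends on this scale. The 5 nearest to Irf5 were Rnd3, Tpm4, Ctss, Serpinf1 and Pigt, at distances of 0.0852 to 0.153, and 3 genes were on both lists.

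Their levels ranged widely. Mpo, the myeloperoxidase of primary granules, was at 192 and 166 FPKM in KO, against 399 and 310 FPKM in WT. Ctss, the lysosomal protease cathepsin S that trims the invariant chain in antigen-presenting cells, was at 121 and 117 FPKM in KO, against 231 and 195 FPKM in WT. Rnd3, an atypical small GTPase, was at 0.710 and 0.596 FPKM in KO, against 2.39 and 1.88 FPKM in WT. In each of these genes, as in Irf8, the KO libraries were the lower and the first WT library was the highest, which follows from their choice by likeness.

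**Figure D4:**
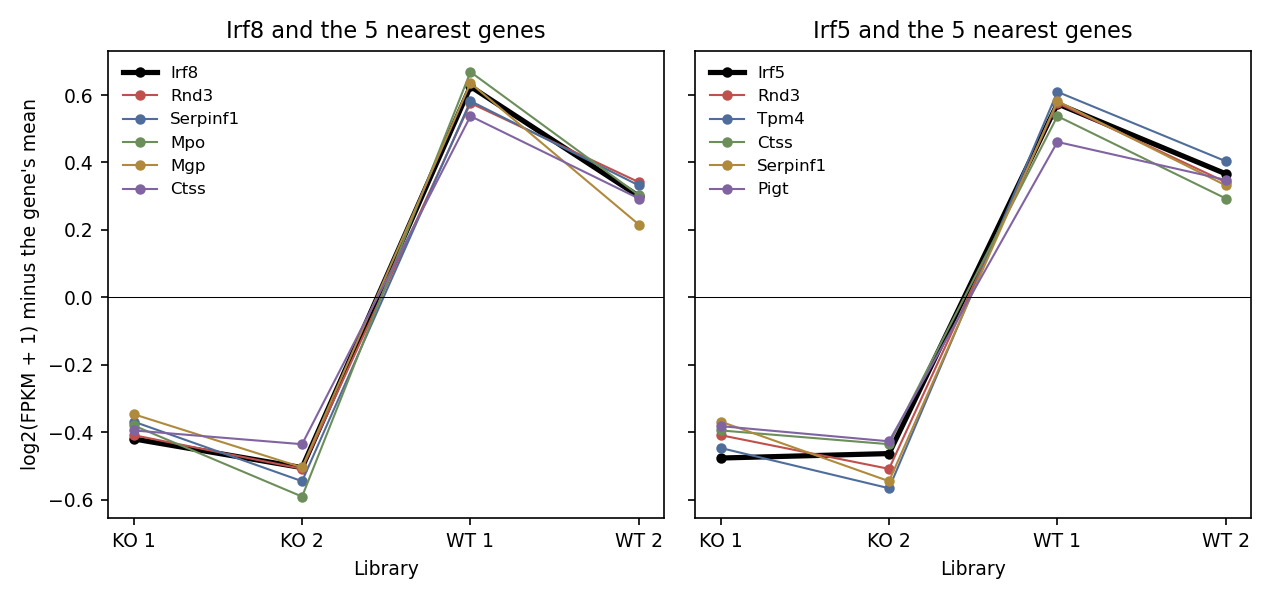
Log2(FPKM + 1) minus the gene's own mean (vertical axis) in the 4 libraries, KO left of WT, for Irf8 and its 5 nearest genes (left) and Irf5 and its 5 nearest genes (right), with the IRF gene as the thick line. Lines join the libraries of 1 gene and mark no order among them.

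Genes that act with the IRFs were then counted from lists of the pathway, for which the fit over all genes gives a test. The median log2 fold change over all tested genes was 0.03. An unadjusted p below 0.05 was found for 20.7% of all tested genes in either direction, and each list's count at that level is to be read against this share. The first list holds DNA-binding partners and nuclear cofactors. Of 12 tested, 0 were called by limma, with 2 higher and 1 lower at an unadjusted p below 0.05 and a median log2 fold change of 0.11. Limma-voom called 2 higher and 1 lower, where it called 3.88% of all genes higher and 3.42% lower. Irf2bpl, a member of the IRF2-binding corepressor family, was at 3.13 and 2.48 FPKM in KO, against 4.88 and 4.18 FPKM in WT (log2 fold change −0.54, SE 0.142, limma adjusted p = 0.136). Irf2bp2, of the same family, was at 16.8 and 20.7 FPKM in KO, against 13.3 and 14.5 FPKM in WT (0.40, SE 0.120, adjusted p = 0.164). An antisense gene overlaps 20.5% of its exonic length. These 2 were among the genes called by limma-voom.

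The main partners of IRF8 and IRF9, picked with their values known, had no adjusted p below the threshold. Spi1, which encodes PU.1, was at 302 and 285 FPKM in KO, against 294 and 247 FPKM in WT (log2 fold change 0.12, SE 0.118, limma adjusted p = 0.577). The ratio of Irf8 to Spi1 was 0.0538 and 0.0536 in KO, against 0.118 and 0.111 in WT. Stat2, a partner of IRF9, was at 11.5 and 12.1 FPKM in KO, against 10.5 and 11.1 FPKM in WT (log2 fold change 0.12, adjusted p = 0.459). Batf3, the partner of IRF8 in a lineage of dendritic cells, was picked likewise and was below the filter at 0.782 and 0.625 FPKM in KO, against 0.204 and 0.227 FPKM in WT.

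Sensors, adaptors and kinases upstream of IRF3, IRF5 and IRF7 form the next list. Of 27 tested, 0 were called by limma, with 5 higher and 4 lower at an unadjusted p below 0.05 and a median log2 fold change of 0.004, and limma-voom called 3 higher and 0 lower. Ikbke, a kinase that phosphorylates IRF3 and IRF7, was at 14.7 and 16.3 FPKM in KO, against 11.0 and 9.99 FPKM in WT (log2 fold change 0.52, SE 0.0996, adjusted p = 0.0855). Sting1, the adaptor that answers cytosolic DNA, was at 43.1 and 40.1 FPKM in KO, against 55.0 and 51.9 FPKM in WT (−0.35, SE 0.0847, adjusted p = 0.118). Tbk1, the kinase shared by these routes, had levels of 22.1 and 23.7 FPKM in KO, against 21.8 and 21.8 FPKM in WT. Among receptors that signal to IRF5, Tlr7 was at 0.638 and 1.34 FPKM in KO, against 1.62 and 1.31 FPKM in WT, and Tlr9 stayed at or below 0.260 FPKM in all 4 libraries. Tbk1 and both receptors were picked with their values known.

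Of 12 tested genes that restrain IRF activation or interferon signalling 0 were called by limma, with 0 higher and 1 lower at an unadjusted p below 0.05 and a median of 0.05, and limma-voom called 0. Socs3, a feedback inhibitor of cytokine receptors, was at 1.18 and 2.23 FPKM in KO, against 4.27 and 2.40 FPKM in WT (log2 fold change −0.67, SE 0.274, adjusted p = 0.239). Otud5, a deubiquitinase that acts on TRAF3, was at 9.02 and 10.7 FPKM in KO, against 8.34 and 7.68 FPKM in WT (0.26, adjusted p = 0.254).

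Interferon receptor and Janus kinase genes followed. Of 8 tested 0 were called by limma, with 4 lower and 0 higher at an unadjusted p below 0.05 and a median log2 fold change of −0.12, and limma-voom called 1 lower. That gene was Ifngr2, the signalling chain of the interferon-gamma receptor, at 17.5 and 16.3 FPKM in KO, against 23.4 and 26.4 FPKM in WT (log2 fold change −0.53, SE 0.0957, limma adjusted p = 0.0747). Ifnar1, a chain of the type I receptor, was at 14.1 and 13.3 FPKM in KO, against 15.7 and 17.8 FPKM in WT (−0.27, adjusted p = 0.200).

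**Figure D5:**
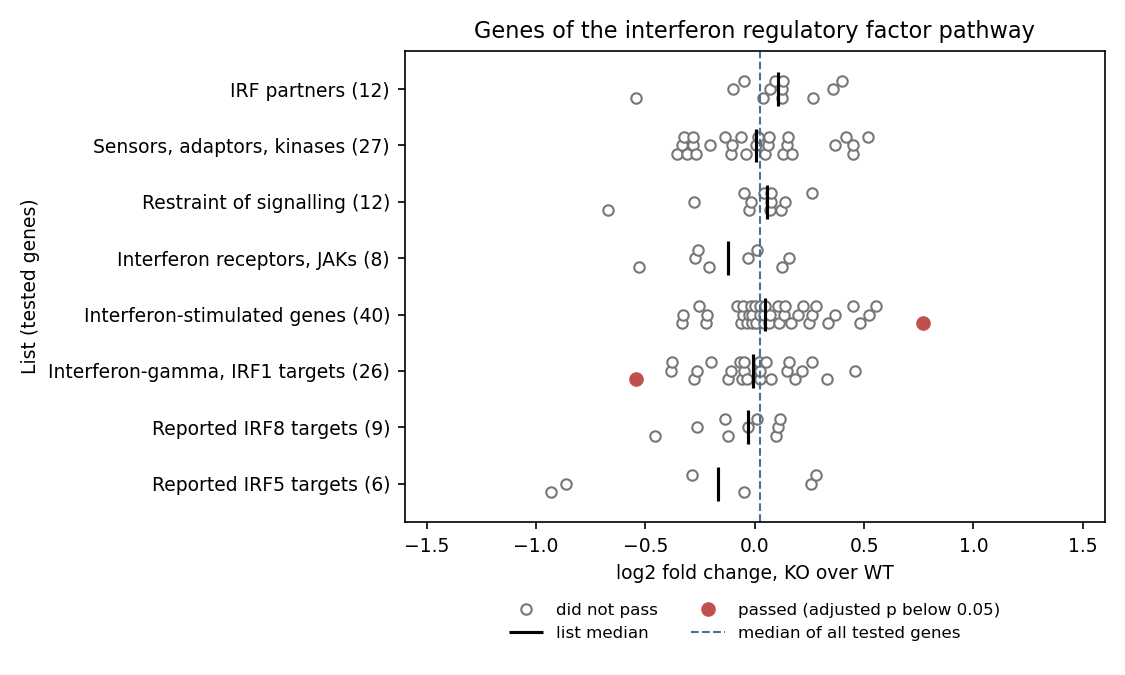
Log2 fold change, KO over WT (horizontal axis), of each tested gene in 8 lists of the IRF pathway, with the number tested in brackets, filled where limma's adjusted p was below 0.05, a black bar at the list median and a dashed line at the median of all tested genes. The filled points are Samd9l, at 0.77, and Tapbp, at −0.54.

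Interferon-stimulated genes, which carry ISRE sites and are read out by IRF9 and its relatives, had 40 tested members. Limma called 1 higher and 0 lower, against 0.603% and 0.408% of all genes, and the median log2 fold change was 0.05. Samd9l, an interferon-induced antiviral and growth-restraining gene, rose to 13.7 and 13.7 FPKM in KO, against 7.25 and 8.04 FPKM in WT (log2 fold change 0.77, SE 0.0944, limma adjusted p = 0.0330). Its adjusted p was 0.0942 without KO replicate 1, 0.211 without KO replicate 2, 0.159 without WT replicate 1, 0.106 without WT replicate 2 and 0.0752 without the filter on level. At an unadjusted p below 0.05, 8 were higher and 1 was lower. Both directions together, that share of the list was close to the 20.7% of all genes, which does not speak to the split. Limma-voom called 5 of 39 tested genes higher and 0 lower, against 3.88% and 3.42% of all genes. The ubiquitin-like modifier Isg15, picked with its values known, stood at 29.9 and 30.1 FPKM in KO, against 26.9 and 22.4 FPKM in WT (0.28, adjusted p = 0.218). Ifit3, picked likewise, was at 11.0 and 9.65 FPKM in KO, against 13.3 and 13.1 FPKM in WT (−0.33, adjusted p = 0.165).

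In the list of interferon-gamma genes reached through IRF1, limma called 1 of 26 tested genes lower and 0 higher (median log2 fold change −0.01). Tapbp, which encodes tapasin of the peptide-loading complex, fell to 70.6 and 74.1 FPKM in KO, against 105.6 and 106.2 FPKM in WT (log2 fold change −0.54, SE 0.0803, limma adjusted p = 0.0497). This call lay at the threshold. The adjusted p was 0.0522 with median-ratio scaling, 0.0506 with a pseudocount of 0.1, 0.0914 without the filter, 0.112 and 0.207 without KO replicate 1 or 2, and 0.234 and 0.177 without WT replicate 1 or 2. At an unadjusted p below 0.05, 2 were higher and 4 lower, both directions together again close to the share of all genes. Limma-voom called 2 of 24 tested genes lower and 0 higher, against 3.42% and 3.88% of all genes.

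Genes reported as targets of IRF8 in myeloid cells form a list of their own. Of 9 tested 0 were called by limma, with 1 lower at an unadjusted p below 0.05 and a median log2 fold change of −0.03, and limma-voom called 1 lower. The survival gene Bcl2 was at 5.51 and 5.19 FPKM in KO, against 7.39 and 8.01 FPKM in WT (−0.45, SE 0.102, limma adjusted p = 0.111), and Bcl2l1, a relative of it, was at 12.97 and 10.7 FPKM in KO, against 14.1 and 14.6 FPKM in WT (adjusted p = 0.250). Among the activated targets, picked with its values known, the NADPH oxidase gene Cybb had a log2 fold change of −0.12 (SE 0.131, adjusted p = 0.620). Klf4, a monocyte factor downstream of IRF8 that was picked likewise, was below the filter at 0.321 and 0.520 FPKM in KO, against 0.284 and 0.138 FPKM in WT.

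Of 6 tested cytokine genes reported as IRF5 targets 0 were called by limma, with 1 higher and 2 lower at an unadjusted p below 0.05 and a median of −0.17, and limma-voom called 2 lower. These were Ccl4, at 32.6 and 24.0 FPKM in KO, against 51.6 and 57.1 FPKM in WT, and Ccl5, at 6.05 and 7.64 FPKM in KO, against 11.1 and 15.6 FPKM in WT. Both encode chemokines for monocytes and T cells, and their log2 fold changes were −0.93 (SE 0.149, limma adjusted p = 0.0573) and −0.86 (SE 0.178, adjusted p = 0.0954). The groups did not overlap for either gene, as for 55.3% of all tested genes. Of the 6, 4 were below 0 and 2 above, the latter Il12a and Tnf, named with their values known. Il12a, the 1 higher, was at 68.5 and 75.7 FPKM in KO, against 56.6 and 61.8 FPKM in WT (0.28, SE 0.0937, limma adjusted p = 0.191). Tnf had a log2 fold change of 0.26 (SE 0.207, limma adjusted p = 0.500). Without KO replicate 1, 1 gene of this list was called lower. The Irf8 and Irf5 calls themselves are not tests of these lists, and the 12 type I interferon genes listed were not analysed here.

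Some markers of cell types that express Irf8 and Irf5 differed as well. In these bulk samples fewer cells of a type and less RNA per cell cannot be told apart. Of 14 tested monocyte markers 3 fell (Ms4a6b, Ctss and Ms4a6c), 1 rose (Fgl2) and 10 did not pass. The median log2 fold change of the 14 was −0.36, with 10 below 0 and 4 above. The summed level of all 17 was 1963 and 1939 FPKM in KO, against 2150 and 1718 FPKM in WT. Most of that sum came from Lyz2 (920 and 819 FPKM in KO, 988 and 695 in WT) and Ly6c2 (645 and 705 in KO, 563 and 514 in WT). Of 9 tested macrophage markers 4 fell (Lgmn, C1qa, C1qb and C1qc) and 0 rose, with a median log2 fold change of −1.13. The sums over 12 genes were 276.9 and 270.5 FPKM in KO, against 318.9 and 362.5 FPKM in WT. Most of these sums came from Apoe (212 and 207 FPKM in KO, 202 and 225 in WT). Of 7 tested B and plasma cell markers 3 fell (Igkc, Ighm and Jchain) and 0 rose, with a median log2 fold change of −0.475. At an unadjusted p below 0.05, 1 was higher and 4 were lower. The higher 1 was Cd79a, at 3.09 and 3.71 FPKM in KO, against 1.785 and 1.82 FPKM in WT (0.65, SE 0.137, limma adjusted p = 0.101). The sums over 9 genes were 329.0 and 274.3 FPKM in KO, against 453.8 and 414.8 FPKM in WT. Xbp1 had the largest part of these sums (190 and 152 FPKM in KO, 225 and 196 in WT). Of 15 mature neutrophil markers 8 rose (S100a8, S100a9, Camp, Ngp, Lcn2, Mmp9, Retnlg and Padi4) and 0 fell. The median log2 fold change of the 15 was 0.76, with 10 above 0 and 5 below (Ltf, Mmp8, Cxcr2, Csf3r and Chil3). The sums over all 15 were 3353 and 3917 FPKM in KO, against 1759 and 1661 FPKM in WT. S100a8 had the largest part of these sums (1173 and 1506 FPKM in KO, 560 and 584 in WT).

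The ratio of Irf8 to Csf1r, the receptor gene of the monocyte growth factor, picked with its values known, was 2.13 and 1.77 in KO, against 2.83 and 2.87 in WT. Among conventional dendritic cell markers 0 of 6 tested were called by limma (2 lower and 0 higher at an unadjusted p below 0.05, and 1 lower by limma-voom), with sums of 46.7 and 42.0 FPKM in KO, against 52.8 and 56.2 FPKM in WT. Xcr1, a defining receptor of these cells picked likewise, was at or below 0.230 FPKM in every library. Flt3 had the largest part of the conventional dendritic cell sums (19.6 and 17.7 FPKM in KO, 26.2 and 28.2 in WT). The median log2 fold change of the 6 was −0.087, with 3 below 0 and 3 above. Among plasmacytoid markers 0 of 4 tested were called (0 at an unadjusted p below 0.05 and 0 by limma-voom), with sums of 113.7 and 113.8 FPKM in KO, against 118.1 and 113.2 FPKM in WT. Most of these sums came from Bst2 (68.7 and 72.3 FPKM in KO, 78.3 and 71.1 in WT), which is also in the interferon-stimulated list. No marker in the table was at 0 in all libraries. With a library left out the 3 monocyte falls and the rise of Fgl2 became 0 in all 4 cases, and also 0 without the filter. The 4 macrophage falls became 1 without KO replicate 1 or 2, 0 without WT replicate 1 or 2, and 2 without the filter. The 3 B cell falls became 1 without KO replicate 1 and 0 without KO replicate 2, WT replicate 1, WT replicate 2 or the filter. The 8 neutrophil rises became 6 without KO replicate 1, 3 without KO replicate 2, 1 without WT replicate 1 or 2, and 4 without the filter. Of 7 tested erythroid markers 5 rose and 0 fell, with sums of 429.8 and 522.9 FPKM in KO, against 99.5 and 91.0 FPKM in WT, and with a library left out 2 to 4 rose. Of 8 tested T and NK cell markers 0 were called (2 higher and 4 lower at an unadjusted p below 0.05, and 2 higher and 1 lower by limma-voom). Of 9 tested granulocyte precursor markers 0 were called as well (3 higher and 1 lower at an unadjusted p below 0.05, and 1 higher and 1 lower by limma-voom). Beside all these marker counts, limma called 0.603% of all tested genes higher and 0.408% lower, and 20.7% had an unadjusted p below 0.05. Limma-voom called 3.88% higher and 3.42% lower. The part of these cell types in the levels of Irf8 and Irf5 was not tested.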

How the data were processed

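Poly(A) RNA of 4 libraries was sequenced. The tools listed in the submitters' processing notes are HISAT2 2.1.0, CASAVA, DESeq2 and featureCounts, and the build is GRCm38, with no role or order given. The authors deposited 1 table that behaves as FPKM with 1 added, since its lowest value is exactly 1, and that 1 was subtracted. Symbols were matched to GENCODE M21, where 16003 genes (97.3%) matched 1 gene. Multiplied by exonic length, low FPKM values (30 reads or fewer) were whole multiples of a library's step in 99.0% to 99.2% of cases (tolerance 0.05), which gave the depths and, for 15801 genes, whole reads.

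Tests used limma 3.58.1 (R 4.3.3) in trend form on log2(FPKM + 1), a scale that understates changes of low genes, with group as the only term, 2 residual and 4.10 prior degrees of freedom, and two-sided p-values adjusted over 11768 genes. A permutation test of 2 against 2 libraries cannot give a two-sided p below 0.333. The procedure was run on simulated reads with the same spread for every gene, which need not match these libraries, and nothing is drawn from that run. Replicates differed by more than sampling noise (chi-square per gene 16.9 in KO and 14.2 in WT). Alternatives were a pseudocount of 0.1, no filter, a mean of at least 5 FPKM, median-ratio scaling, limma-voom with TMM scaling on recovered reads, the replicate number as a block, and each library left out.

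Members, lists and alternatives were chosen with earlier results of these data known. Genes named were all family members, called genes of each list (up to 4), or the 2 with the smallest p where none was called, the 5 nearest to Irf8 and to Irf5, and others marked as picked with their values known, that is, chosen after their values were seen. Neighbouring genes are named by position and marker genes by call, apart from those marked as picked. Lyz2, Ly6c2 and Apoe are named for their weight in a sum, with their values known. Protein sequences were not analysed here.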

Additional observations from a re-analysis of the deposited data

How the results depend on the processing

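The fold changes of Irf8 and Irf5 kept their sign under all 10 alternatives. With 1 library left out they ran from −1.09 to −0.76 for Irf8 and from −1.04 to −0.84 for Irf5. Since the groups of neither gene overlapped, leaving 1 library out could not change the sign. With 2 libraries per group it also cannot move a fold change beyond 1 SD between replicates. Changing the filter on level or adding the replicate block leaves the estimate as it is, so these settings do not test its size. The 2 member calls became 0 without the filter on level and 0 with any of the 4 libraries left out, where the lone library of a group is assumed to vary like the other group. Genes called higher and lower numbered 442 and 390 by limma-voom, 108 and 82 with a mean of at least 5 FPKM, 22 and 10 without the filter (genes at 0 throughout left out), 40 and 26 with the replicate block, and 4 to 50 and 2 to 14 with 1 library left out. The replicate numbers are not known to pair the libraries, and deviations of same-numbered libraries had a correlation of 0.009 over genes. With the block the interferon-stimulated list had 0 calls higher (adjusted p = 0.0603 for Samd9l) and the interferon-gamma and IRF1 list 0 lower (0.0787 for Tapbp). Among marker lists with the block, monocyte calls became 0, B cell falls 1, neutrophil rises 6 and erythroid rises 4, the 4 macrophage falls stayed in number, and 1 T and NK cell marker and 1 granulocyte precursor marker were called lower.

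By limma-voom, calls were 2 higher and 1 lower for IRF partners, 3 higher for sensors, adaptors and kinases, 1 lower for receptors, 5 higher for interferon-stimulated genes, 2 lower for interferon-gamma and IRF1 targets, 1 lower for IRF8 targets and 2 lower for IRF5 targets. Over all its tested genes limma-voom called 3.88% higher and 3.42% lower. With a mean of at least 5 FPKM, 1 sensor or kinase was higher, and 1 receptor and 1 IRF5 target were lower. The single call of the interferon-stimulated list became 0 without the filter, and that of the interferon-gamma and IRF1 list became 0 without the filter, with median-ratio scaling and with a pseudocount of 0.1. With 1 library left out both ranged from 0 to 0, and lower calls among IRF5 targets from 0 to 1. The cause of these shifts was not tested. On recovered reads, which are not per length, Irf8 took 18.3% of the family in KO and 28.9% in WT, and Irf5 took 7.32% in KO and 11.7% in WT. Of the 7 members, 5 kept their place of the mean order in each KO library and 4 in each WT library. Allowing 1 mismatch in the 8 fixed letters, 3 members held the ISRE rather than 1, against 35.4% of all windows.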
